A study of Mus musculus with 16 samples.

Results

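The genes described here are 8 translation factor genes of the mouse: Eif3a, Eif4a1, Eif4a2, Eif4g1, Eif4g2 and Eif5, which act in initiation, and Eef1a1 and Eef2, which act in elongation. They are 8 of 32052 protein-coding and long noncoding genes of GENCODE M21, chosen by family with DNA break ends of these libraries in view, including the levels in the genes and the difference between the lines, which Eif3a was known to show. The measurement is BLISS, in which free DNA ends are ligated to an adapter inside fixed cells and each ligated end is then located in the genome. The cells are AB22, a mouse malignant mesothelioma line, and the title of the study concerns the protection of DNA by nucleosomes against double-strand breaks from radiation.

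The libraries come from a pair of cell lines. The shHMGB1 cells carried an inducible lentiviral hairpin (pTRIPZ) against HMGB1, an abundant DNA-bending chromatin protein, and the shCTRL cells the same vector with a control hairpin; the HMGB1 protein level was not analysed here. Both lines were selected with puromycin, kept at 5% oxygen, given 1 µM doxycycline for 7 to 10 days and held in G1, so all groups share these treatments. Cells then received gamma rays from a caesium source, at doses of 0, 3, 5 or 10 Gy, with 2 libraries for each line and dose, which makes 8 groups and 16 libraries. The labels call the 2 libraries biological replicates without saying that they were separate cultures, and a p-value here covers no more than the spread among these libraries. Each library held 131430 to 1010888 ends on the main chromosomes, 11380784 in all, and the smallest was shCTRL 3 Gy replicate 2. Break ends are not read here as a measure of transcripts. In exons the median density of the 8 translation factor genes was 5.40 CPM per kb (CPM are counts scaled to the library's total of ends). The 7 mesothelial markers had a median of 0.307, with 211 ends in all, of which 151 lay in Msln (mesothelin), at 6.09 CPM per kb, and 6 blood cell markers a median of 0.223, with 66.

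Translation starts when the cap-binding complex eIF4F and the multisubunit factor eIF3 bring the small ribosomal subunit to a messenger RNA. Within eIF4F, eIF4G is the scaffold and eIF4A the RNA helicase that unwinds the leader. eIF5 then triggers GTP hydrolysis by eIF2 at the start codon, after which eEF1A delivers aminoacyl-tRNA to the ribosome and eEF2 moves it on by a codon. Several genes of this machinery carry small nucleolar RNA (snoRNA) genes in their introns. A snoRNA is cut out of the host's intron and guides the chemical modification of ribosomal RNA, as a C/D box snoRNA (Snord genes, methylation) or an H/ACA box snoRNA (Snora genes, pseudouridine).

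In 6 of the 8 genes the densest part was made up of intronic small RNA genes, nearly all of them snoRNA genes, and in Eif3a the densest stretch was a single exon. Within their annotated limits, small RNA genes took 89.3% of the 4218 ends in Eif4a2, 79.0% of the 1794 in Eif4a1, 65.0% of the 1072 in Eif4g2 and 39.3% of the 4417 in Eif4g1. They took 18.99% of the 869 ends in Eef2 and 14.0% of the 200 in Eif5. In Eif3a, by contrast, exons held 80.3% of 2074 ends and the small RNA genes 2 ends, and in Eef1a1, which hosts no snoRNA, exons held 56.3% of 229 ends. As a density over all libraries, small RNA genes exceeded the introns of the same gene 308-fold in Eif4g1, 282-fold in Eif4g2, 61.1-fold in Eif4a2, 37.0-fold in Eif4a1, 19.2-fold in Eef2 and 16.3-fold in Eif5. The small RNA density was above the intron density in 16 of 16 libraries in each of these genes except Eif5, where it was in 15. Many ends lay just outside the annotated limits and count as intron here. With each small RNA gene widened by 10 bases on both sides, its share was 51.1% in Eef2, 56.6% in Eif4g1, 86.3% in Eif4a1, 92.5% in Eif4a2, 65.1% in Eif4g2 and 18.5% in Eif5, and the ratio to introns was 167 in Eef2, 754 in Eif4g1, 56.2 in Eif4a1 and 114 in Eif4a2.

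Exon density, in CPM per kb, averaged 30.9 ± 10.1 in Eif3a, 17.9 ± 4.12 in Eif4g1, 10.4 ± 6.16 in Eef2, 6.93 ± 4.41 in Eef1a1, 4.48 ± 1.91 in Eif4a2, 2.79 ± 0.807 in Eif4g2, 2.56 ± 2.90 in Eif4a1 and 2.30 ± 1.39 in Eif5 (SD, n = 16). In that order, each gene from Eef2 downward lay within the spread of its neighbour. The median of 10541 protein-coding genes was 0.631 CPM per kb, and from 88.6% (Eif5) to 99.8% (Eif3a) of those genes had a lower exon density than the gene named. Whether exons were denser than introns depended on the ends beside the snoRNA genes. With small RNA genes at their annotated limits, the ratio of exon to intron density was 19.6 in Eif3a, 7.21 in Eef1a1, 2.44 in Eif4g1, 2.12 in Eif4g2 and 1.66 in Eif5, but 0.835 in Eef2, 0.477 in Eif4a2 and 0.301 in Eif4a1, against a median of 1.61 over the 10541 genes. With small RNA genes widened by 10 bases the ratio was 3.54 in Eef2, so its direction turned, 5.29 in Eif4g1, 0.984 in Eif4a2 and 0.483 in Eif4a1, and the median over genes stayed at 1.61. In Eef2, 94 of the 373 ends counted as intron were then left. The members were chosen with their levels in view, so these ranks describe them and test nothing.

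**Figure D1:**
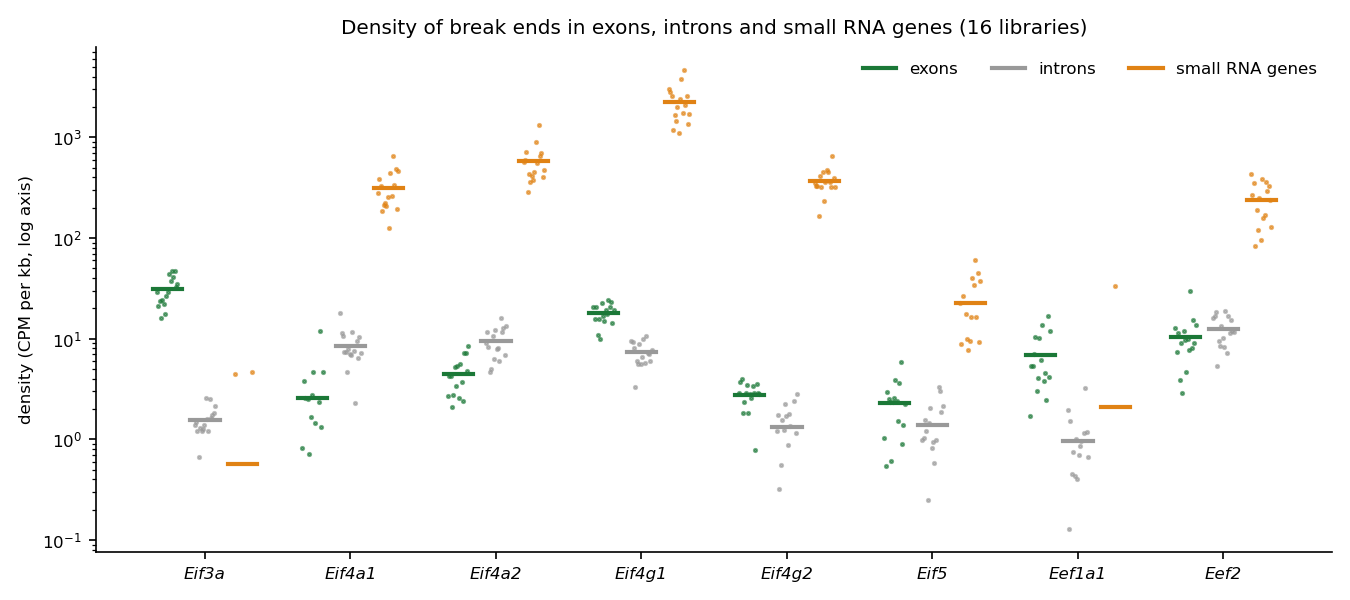
Density of break ends (CPM per kb, log axis) in exons, introns and small RNA genes (annotated limits) of the 8 genes. Points are the 16 libraries (libraries at 0 are not drawn) and bars their mean, zeros included; the small RNA genes of Eif4g1 averaged 2255 CPM per kb and its introns 7.33, while in Eif3a the exons stood highest, at 30.9.

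The intronic snoRNA genes are shown by sequence because the ends sit at a few bases of them. All are read 5′ to 3′ on the strand of the host gene, in the mm10 build, from the GENCODE M21 transcripts, and capitals mark each base that held at least 5% of the ends inside that snoRNA gene. Snord66 lies in an intron of Eif4g1 at chr16:20684239-20684313 (plus strand), Snord2 and Gm26447 in introns of Eif4a2 at chr16:23108953-23109021 and chr16:23111301-23111429 (plus strand), and Snord37 in an intron of Eef2 at chr10:81178950-81179013 (plus strand). Gm25835 lies in an intron of Eif4a1 at chr11:69668852-69668995 (minus strand) and Gm23262 in an intron of Eif4g2 at chr7:111076060-111076227 (minus strand).
Snord66: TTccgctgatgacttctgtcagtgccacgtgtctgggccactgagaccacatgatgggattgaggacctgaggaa
Snord2: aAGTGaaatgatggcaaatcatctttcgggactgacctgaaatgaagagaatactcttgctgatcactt
Snord37: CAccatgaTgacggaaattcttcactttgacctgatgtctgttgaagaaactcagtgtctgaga
Gm26447: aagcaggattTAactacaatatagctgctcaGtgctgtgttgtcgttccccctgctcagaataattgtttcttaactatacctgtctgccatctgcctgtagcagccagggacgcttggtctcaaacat
Gm25835: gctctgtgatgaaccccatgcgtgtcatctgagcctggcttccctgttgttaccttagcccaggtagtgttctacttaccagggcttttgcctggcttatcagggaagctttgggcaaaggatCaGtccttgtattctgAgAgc
Gm23262: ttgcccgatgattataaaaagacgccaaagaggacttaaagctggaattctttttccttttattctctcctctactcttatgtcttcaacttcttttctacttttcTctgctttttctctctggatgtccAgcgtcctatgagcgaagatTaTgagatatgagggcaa

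In Snord66, Snord2 and Snord37, on the plus strand, most capitals stand at or near the first bases, most plainly in Snord66, where 2 bases held 70.0% of its 1735 ends and the first base alone 930. Including 20 bases on each side, 80.4% of the ends at Snord66 and 74.0% of the 446 ends at Snord37 lay within 2 bases of the first base, many of them just outside the annotated gene. In Snord2, 4 bases held 61.9% of 693 ends. Gm26447 was the most filled, with 2808 ends at 105 positions, and its ends were more spread out and stood further in, with 10.1% at its top base, base 32 of 129, and 5.59% within 2 bases of the first. On the minus strand the capitals stand towards the other end of the sequence. In Gm25835, 4 bases held 52.9% of 770 ends, and in Gm23262 base 107 of 168 held 20.2% of 697 ends.

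In genome coordinates both strands showed the same picture: ends gathered on the lower-coordinate side. The lower side of the gene, up to its midpoint, held 93.1% of the ends in Gm24029, 89.4% in Gm25835, 97.8% in Gm22988 and 94.1% in Gm23262 on the minus strand, and from 78.8% to 96.5% in Snord66, Snord2, Snord37, Snora81 and Gm26447 on the plus strand. Over all 175 snoRNA genes with at least 100 ends, 105 of 106 on the plus strand and 67 of 69 on the minus strand had most ends on that side, with medians of 94.6% and 98.0%. Exon edges did the same. In Eif3a, 275 ends lay within 2 bases of a lower-coordinate edge where an exon meets an intron and 2 at a higher-coordinate edge, in Eif4g1 166 and 14, in Eif4g2 40 and 2, in Eef2 19 and 1 and in Eif5 10 and 1. Eif4a1 had 1 and 9, Eif4a2 5 and 5 and Eef1a1 2 and 3. Among other protein-coding genes with at least 10 such ends, 98.7% of 846 on the plus strand and 98.5% of 1065 on the minus strand had more at lower edges. Summed over those genes tested, 90.8% of edge ends on the plus strand and 63.8% on the minus strand lay at lower edges. Gm10800, singled out after its values were seen, held 77170 of the 80565 ends at higher edges on the minus strand, and without it the share there was 93.2%. The files keep no strand, so a position is read here as the place the authors recorded for a molecule, which may be the lower-coordinate side of its alignment and not always the ligated base.

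**Figure D2:**
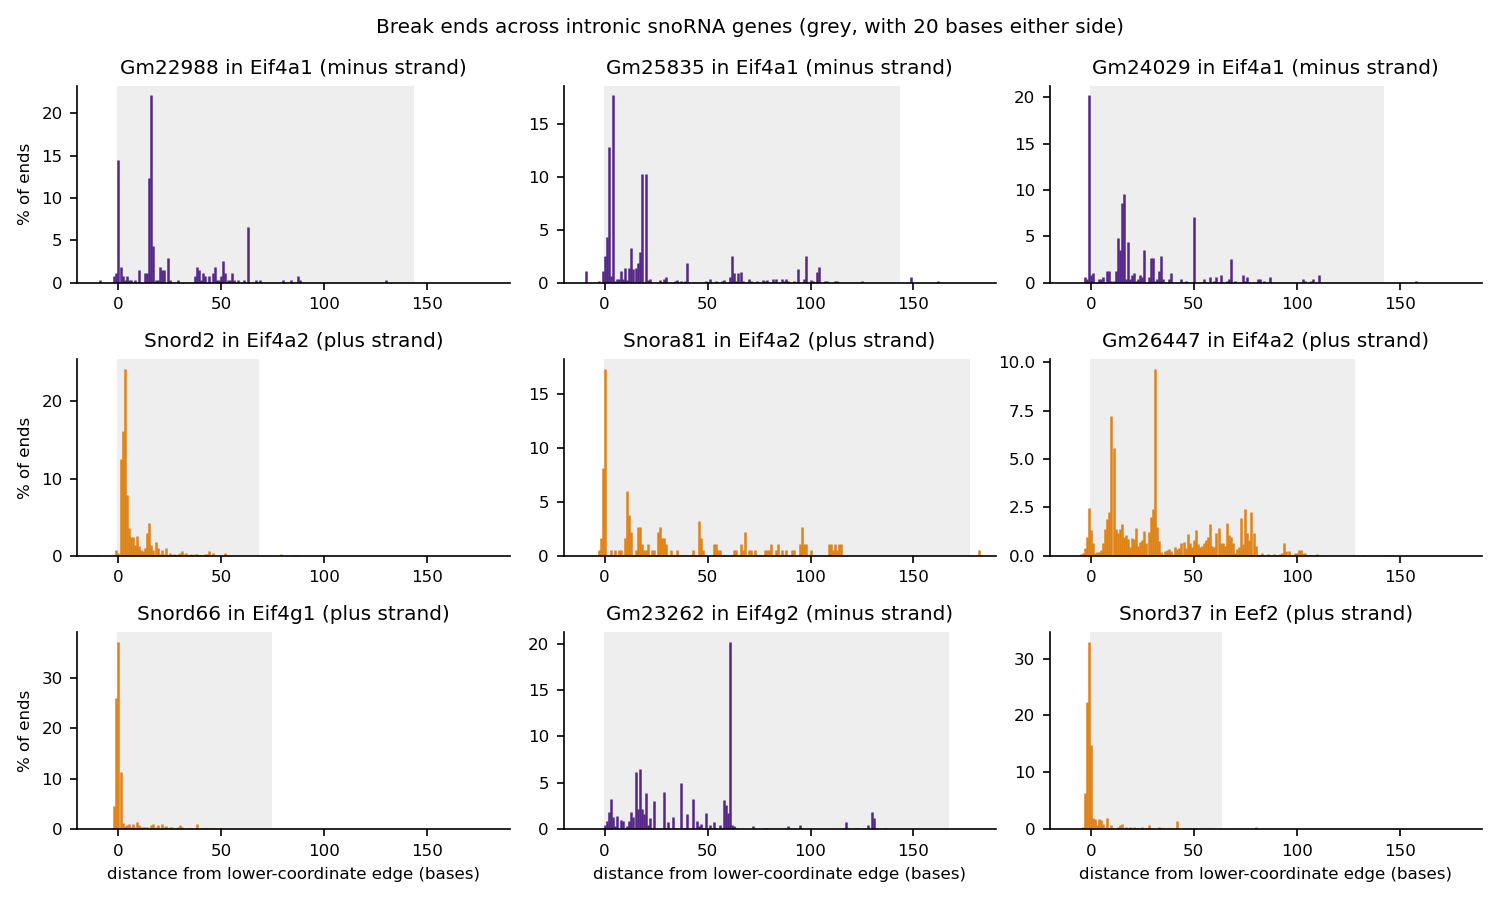
Share of ends at each base (y axis, percent of the ends shown) against distance from the lower-coordinate edge (x axis, bases) for the 9 snoRNA genes with at least 100 ends, all libraries together, orange for the plus strand and purple for the minus strand. The grey span is the annotated gene; on both strands the ends stand at its lower-coordinate side, as at Snord66, where 80.4% lay within 2 bases of that edge.

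Of 14 snoRNA genes annotated in the members, 9 (64.3%) had at least 100 ends, against 175 (11.6%) of all 1507 annotated, and the members were chosen with their levels in view. By number of ends they ranked from 24 (Gm26447) and 42 (Snord66) to 151 (Snora81) among those 175. The 3 in Eif4a1 (Gm22988, Gm25835 and Gm24029) were 49.7% to 50.3% identical to each other in pairwise alignment. Snora81 overlaps the small RNA gene Gm49346, and most ends there count for both. Not every snoRNA gene was filled, since Snora19 and Gm26158 in Eif3a held 2 ends and 0.

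Eif3a, the largest subunit of eIF3 (chr19:60761117-60790658, minus strand), held its ends in one exon more than in all the others together. Exon 19 of 22, 662 bases long, held 1043 ends, 50.3% of the gene's, at 158 positions, with no position above 65. At 138 CPM per kb it was far above exon 12, the next by number of ends, with 198 ends and 49.99 CPM per kb, where 131 ends lay at 1 position. Another pile of 102 ends lay 1 base below the lower-coordinate edge of exon 18. The sequence of exon 19 repeats itself. Shifted by 60 bases it matched itself at 56.5% of positions, by 30 at 52.7%, by 90 at 51.7% and by 120 at 49.3%, against a median of 26.4% over shifts up to 120. Its GC content was 55.0%, against 43.0% in the other exons. A read in such a repeat may map to more than 1 unit, so positions within the exon are less certain than its total. The stretch of 300 bases with the most ends (chr19:60766381-60766680, minus strand) held 681 ends, 65.3% of the exon's, and is printed with capitals at each base that held at least 2% of the exon's ends.
Eif3a exon 19: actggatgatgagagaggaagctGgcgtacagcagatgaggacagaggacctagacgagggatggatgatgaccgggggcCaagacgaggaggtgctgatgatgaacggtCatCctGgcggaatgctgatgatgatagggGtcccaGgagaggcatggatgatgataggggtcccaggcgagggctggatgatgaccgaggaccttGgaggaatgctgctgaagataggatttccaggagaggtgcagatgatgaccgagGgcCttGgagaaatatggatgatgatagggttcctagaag
The capitals, 11 bases, held 38.1% of the exon's ends.

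**Figure D3:**
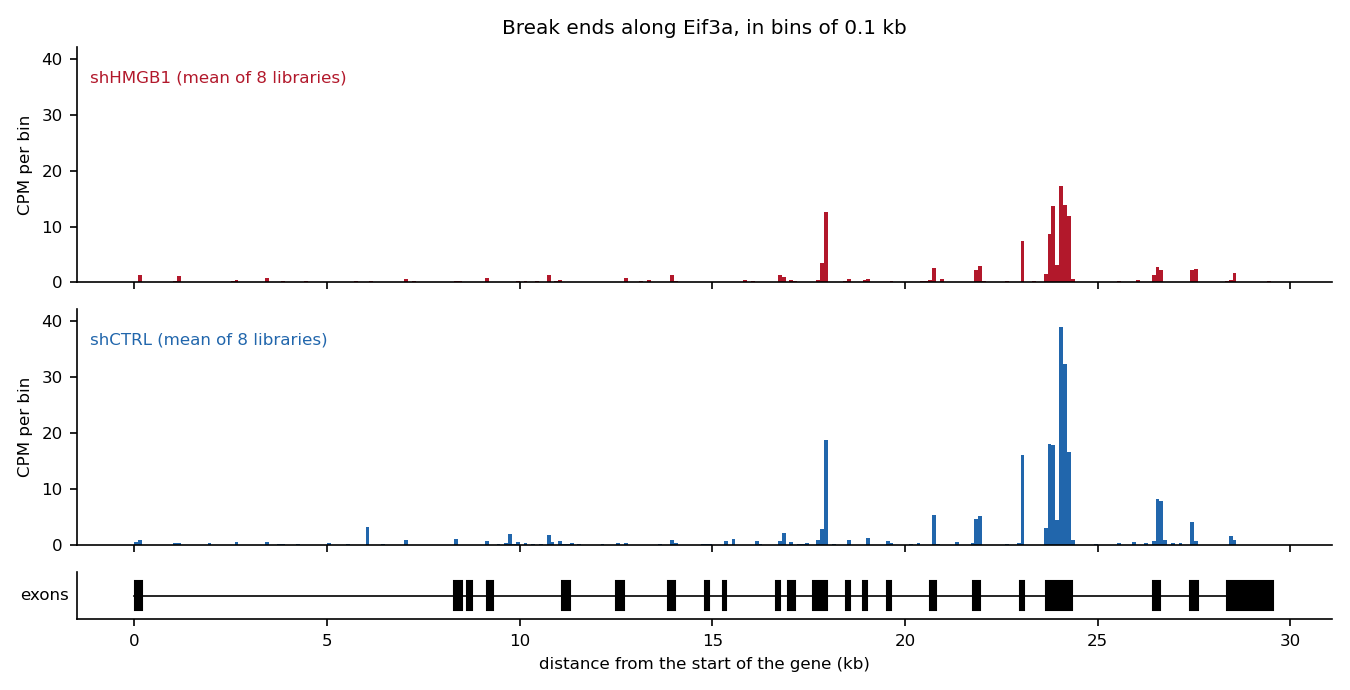
Break ends along Eif3a in bins of 0.1 kb, as mean CPM per bin (y axis) against distance from the start of the gene (x axis, kb), with shHMGB1 above shCTRL (8 libraries each) and exons as black boxes below. The highest bins stand over exon 19 in both lines, and that exon averaged 70.1 CPM in shHMGB1 and 132 in shCTRL cells.

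Between the lines, Eif3a was already known to differ when it was chosen. The 8 shHMGB1 libraries held 98.5 (lowest), 148 (median) and 182 CPM (highest), against 212, 238 and 304 in the 8 shCTRL libraries. The lines did not overlap. The share of all genes tested whose lines were apart in this way is not given here, so nothing is read from the separation. This contrast is one by which Eif3a was known when it was chosen, so its log2 difference of −0.69 ± 0.14 (SE) is a description and no test. The difference was found in both parts of the gene. Exon 19 held 70.1 ± 16.6 CPM in shHMGB1 and 132 ± 29.2 in shCTRL cells (SD, n = 8 each). There the lines all but touched, with the highest shHMGB1 library at 94.0 CPM and the lowest shCTRL library at 94.8, from 46 ends. The remainder of the gene held 75.6 ± 14.6 and 115 ± 9.15 CPM (SD, n = 8 each). In that part the highest shHMGB1 library stood at 88.2 CPM and the lowest shCTRL library at 102.5. Exon 19 held 1.94 ± 0.236 ends per filled position in shHMGB1 libraries, against 2.52 ± 0.478 in shCTRL libraries (SD, n = 8 each), and the lines overlapped in this. When each position counted once, the log2 difference was −0.42, and with exonic ends alone −0.41, and the call ended in both. Both settings scale a library to the counts they keep, so these values are not on the scale of the CPM above. Scaled to all ends, exons held 22.6 ± 4.29 CPM per kb in shHMGB1 and 39.2 ± 6.65 in shCTRL libraries (SD, n = 8 each). The share of all ends that lay on chromosome 19 was 2.99 ± 0.156% in shHMGB1 libraries, against 3.15 ± 0.263% in shCTRL libraries (SD, n = 8 each), and its 452 other tested genes had a median log2 difference of 0.02. The 8 other tested genes within 1 Mb of Eif3a had a median of −0.14, from −0.45 to 1.34. Whether the region around Eif3a differs between the lines was not tested.

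The log2 differences of the other 7 members, shHMGB1 over shCTRL, were −0.56 ± 0.29 in Eif5, −0.41 ± 0.15 in Eif4a2, −0.29 ± 0.29 in Eef1a1, −0.28 ± 0.16 in Eif4a1, −0.20 ± 0.16 in Eif4g2, −0.16 ± 0.15 in Eif4g1 and −0.13 ± 0.18 in Eef2 (SE). All 8 values were below 0, where 45.7% of the 12584 genes tested were, and nothing is read from this because the choice used this contrast. The sign was not stable. With exonic ends alone, scaled to those ends, Eif4g2 stood at 0.39, Eif4g1 at 0.14 and Eef1a1 at 0.05. In that setting Eif5 stood at −0.25, Eif4a2 at −0.10 and Eef2 at −0.01. Of the 8, Eif3a alone passed an adjusted p of 0.05 (edgeR quasi-likelihood, Benjamini-Hochberg over all genes), beside 0.207% of all genes in either direction and 0.159% that were lower in shHMGB1, and nothing is read from that count because the rule used this contrast. At 0 Gy alone, the differences ran from −1.10 ± 0.63 in Eif5 to 0.35 ± 0.31 in Eif4a1. With the ends inside the annotated limits of small RNA genes left out, Eif4a1 stood at 0.05 and Eif4g2 at 0.06, and Eif3a at −0.70.

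**Figure D4:**
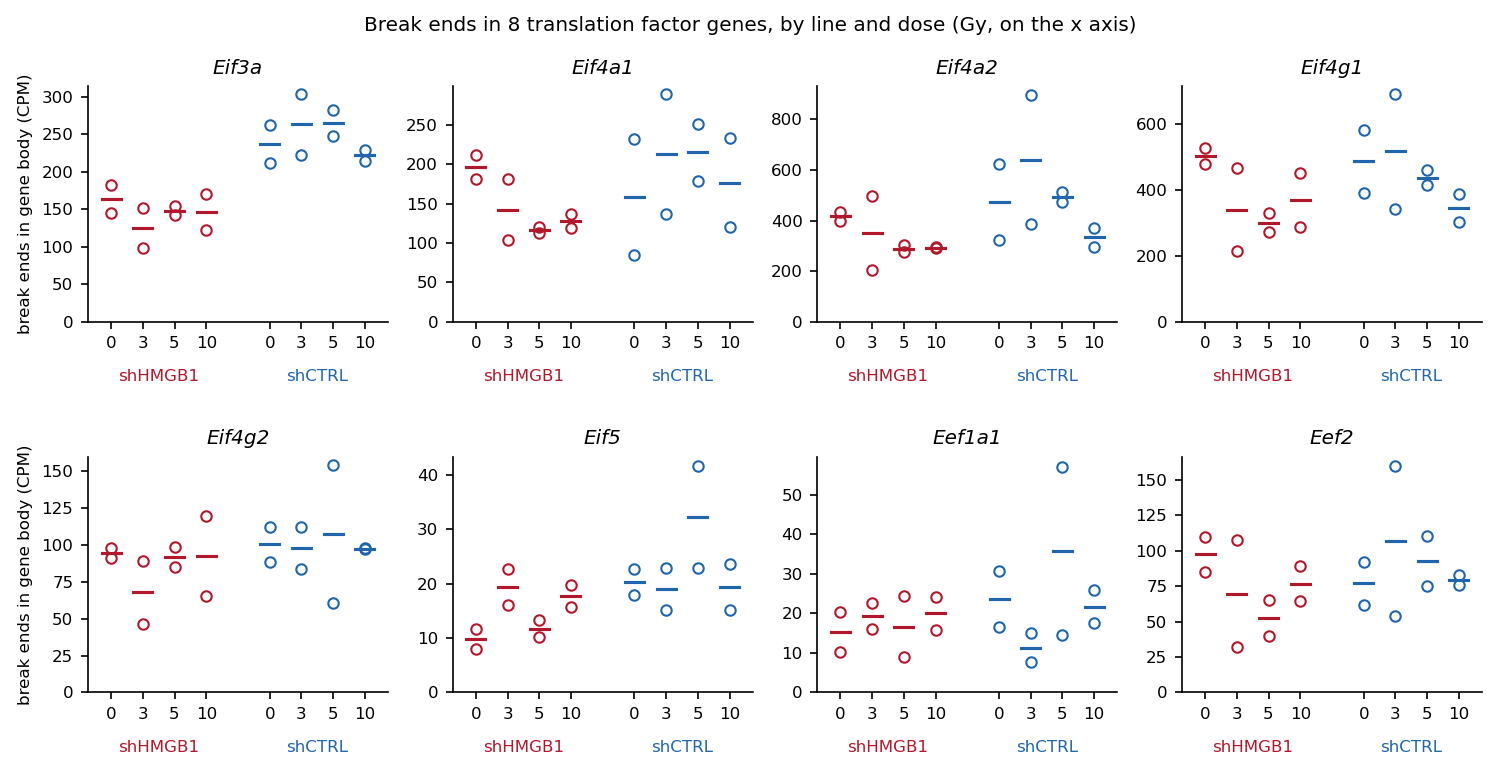
Break ends in each gene body (CPM, y axis) for every library, by dose (0, 3, 5 and 10 Gy, x axis), with shHMGB1 (red) left of shCTRL (blue); circles are libraries and bars the mean of 2. In Eif3a, chosen with this contrast known, the highest shHMGB1 library stood at 182 CPM and the lowest shCTRL library at 212.

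The choice of members names no difference with irradiation, though their levels at each dose were known when it was made. That comparison asks whether cells that received 3, 5 or 10 Gy held a larger or smaller share of their ends in these genes than cells at 0 Gy. All 8 genes passed the filter on low counts, and 0 of 8 passed the test (adjusted p under 0.05), where 0.0238% of all genes did. Those 3 genes were Apol8, Taco1 and Timd2, of which Apol8 was higher in irradiated cells. At an unadjusted p under 0.05, 1 of the 8, Eif4g1, was past the line, where 7.17% of all genes were, and DESeq2 called 0 genes of all. The median log2 change was −0.07 over the 8 members and −0.01 over all genes.

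Eif4g1, the large scaffold of eIF4F (chr16:20668313-20692884), had the lowest estimate. In shHMGB1 cells its 2 libraries held 526 and 478 CPM at 0 Gy, 466 and 214 at 3 Gy, 329 and 271 at 5 Gy, and 451 and 288 at 10 Gy. All 6 irradiated shHMGB1 libraries lay below both at 0 Gy. In shCTRL cells it held 392 and 584 CPM at 0 Gy, 343 and 692 at 3 Gy, 414 and 461 at 5 Gy, and 302 and 387 at 10 Gy, and 3 of the 6 irradiated libraries lay below both at 0 Gy. The share of all genes tested with such an order is not given here, so nothing is read from these counts of libraries. The log2 change over both lines was −0.36 ± 0.17 (SE; edgeR adjusted p = 0.696). It was −0.49 ± 0.24 in shHMGB1 and −0.22 ± 0.25 in shCTRL cells, and the difference between the lines was −0.27 ± 0.35 (edgeR adjusted p = 0.992). With ends inside annotated small RNA genes left out, the change over both lines was −0.19. That fit keeps the 651 and 113 ends at the 2 bases just before Snord66, which count as intron. With exonic ends alone, scaled to the exonic ends of each library, the change was 0.11. Scaled to all ends, exons held 17.9 ± 4.59 CPM per kb in irradiated and 17.8 ± 2.81 in unirradiated libraries (SD, n = 12 and 4). Snord66 by itself held 151 ± 72.3 CPM in irradiated and 225 ± 43.4 in unirradiated libraries (SD, n = 12 and 4).

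Eif4a1 and Eif4a2 encode the 2 closely related eIF4A helicases. Eif4a1 (chr11:69666936-69672423, minus strand) held 181 and 212 CPM at 0 Gy, 181 and 104 at 3 Gy, 119.5 and 112 at 5 Gy, and 119 and 137 at 10 Gy in shHMGB1 cells. In shCTRL cells it held 84.5 and 232, 137 and 289, 179 and 251, and 119.98 and 233 at the same doses. The irradiated shHMGB1 libraries lay below both unirradiated ones in 5 of 6 cases, while in shCTRL cells 3 of 6 lay above both and 0 below both. Nothing is read from these counts either, as their share over all genes tested is not given here. The log2 change was −0.53 ± 0.24 in shHMGB1 and 0.32 ± 0.27 in shCTRL cells, and the difference between the lines, −0.84 ± 0.36, was not past the test (edgeR adjusted p = 0.951). That comparison of responses called 0 genes of 12584 (0%), with 5.21% at an unadjusted p under 0.05. With single libraries left out the difference ran from −1.58 to −0.35.

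The 2 shCTRL libraries of a dose stood apart in Eif4a1 in 1 direction throughout. Replicate 1 averaged 130.1 ± 39.2 CPM and replicate 2 251 ± 26.7 (SD, n = 4 each), with no overlap. In Eif3a, Eif4a2, Eif4g1 and Eef2 too replicate 2 was the higher in shCTRL at 4 of 4 doses. In shHMGB1 cells replicate 2 was the lower at 4 of 4 doses in Eif4g1, Eif5 and Eef2. The call of Eif3a between the lines ended with the number within each line as a block. What the numbers share is not given in the sources used here, and their part in the results was not tested beyond the fits with the number as a block.

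Eif4a2 (chr16:23107444-23114136) held 399 and 433 CPM at 0 Gy, 495 and 204 at 3 Gy, 302 and 276 at 5 Gy, and 294 and 292 at 10 Gy in shHMGB1 cells. In shCTRL cells it held 324 and 622, 385 and 898, 474 and 512, and 296 and 371 at the same doses. The highest value, 898, came from the smallest library, where it rests on 118 ends. The log2 change with irradiation was −0.18 ± 0.18 (SE; edgeR adjusted p = 0.862). Gm26447 alone held 268 ± 138 CPM in irradiated and 302 ± 103 in unirradiated libraries (SD, n = 12 and 4).

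Eif4g2 encodes an eIF4G-like protein, also called DAP5 or NAT1, that lacks the part binding the cap protein eIF4E, and lies at chr7:111067750-111083030 on the minus strand. It held 84.1 ± 25.5 CPM in irradiated and 94.3 ± 4.58 in unirradiated shHMGB1 libraries, and 101 ± 31.4 and 100.4 ± 16.7 in shCTRL libraries (SD, n = 6 and 2 in each line). The log2 change was −0.01 ± 0.19 (SE; edgeR adjusted p = 0.991). Eif5 (chr12:111538016-111546752) was the thinnest, with 3 to 20 ends per library. It held 16.3 ± 4.45 CPM in irradiated and 9.75 ± 2.56 in unirradiated shHMGB1 libraries, and 23.5 ± 9.69 and 20.3 ± 3.41 in shCTRL libraries. The log2 change of 0.46 ± 0.35 was not past the test (edgeR adjusted p = 0.807).

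Of the elongation factors, Eef2, the translocase (chr10:81176631-81182498), held 66.2 ± 28.7 CPM in irradiated and 97.5 ± 17.5 in unirradiated shHMGB1 libraries. In shCTRL libraries it held 92.9 ± 37.5 and 76.8 ± 21.2 (SD, n = 6 and 2 in each line). The log2 change was −0.16 ± 0.21 (SE; edgeR adjusted p = 0.907), and 4 of 6 irradiated shHMGB1 libraries but 1 of 6 in shCTRL lay below both unirradiated ones. As above, these counts have no share over all genes tested beside them, and nothing is read from them. Eef1a1, which delivers aminoacyl-tRNA (chr9:78478449-78489151, minus strand), held 20.8 ± 12.9 CPM in irradiated and 19.4 ± 8.55 in unirradiated libraries of both lines (SD, n = 12 and 4). The log2 change was 0.18 ± 0.34 (SE; edgeR adjusted p = 0.944). Of its 229 ends, the 129 in exons are less certain, since Eef1a1 has processed copies elsewhere in the genome, and how reads were shared among them was not tested. Eif3a changed by −0.04 ± 0.16 with irradiation (edgeR adjusted p = 0.978).

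**Figure D5:**
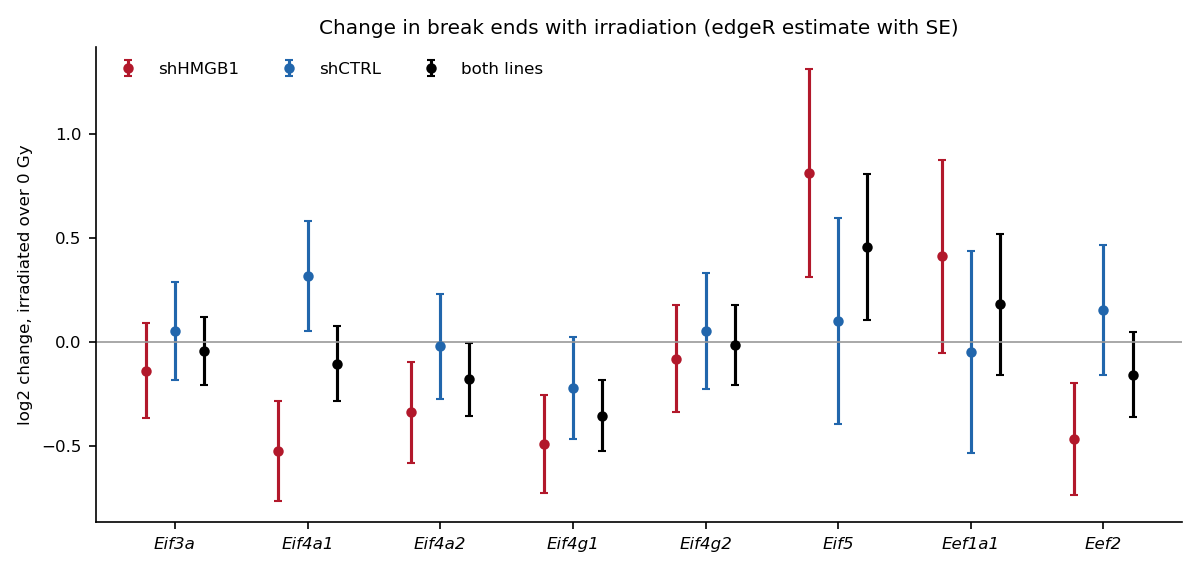
Log2 change in break ends, irradiated over 0 Gy (y axis), for the 8 genes in shHMGB1 cells (red), shCTRL cells (blue) and both lines (black), as edgeR estimates with SE. Estimates over both lines ran from −0.36 in Eif4g1 to 0.46 in Eif5, and none passed the test.

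The parts of a gene were then compared within it, which does not depend on library size. The exon share is the percentage of a gene's ends outside annotated small RNA genes that fell in exons, so ends just beside a snoRNA gene count against it. In Eif4a2 it was 38.1 ± 3.48% in irradiated libraries (SD, n = 11 with at least 10 such ends) and 31.2 ± 8.57% in unirradiated ones (n = 4). The mean difference within lines was 7.15 percentage points (exact two-sided permutation p = 0.0136, 0.0816 after adjustment over the 8 genes). In Eif4g1 it was 46.3 ± 4.31% in irradiated and 39.8 ± 3.15% in unirradiated libraries (SD, n = 12 and 4), a difference of 6.49 points (exact permutation p = 0.0204, adjusted 0.0816). In Eef2 it was 49.3 ± 9.51% and 39.3 ± 5.89%, a difference of 9.99 points (exact permutation p = 0.0676, adjusted 0.180). None of the 8 passed, and Eif5, with a smallest possible exact p of 0.200, could not. Libraries with under 10 such ends were left out, which leaves 15 in Eif4a1 and Eif4a2, 14 in Eif4g2, 11 in Eef1a1 and 10 in Eif5, of which 1 was unirradiated. With single libraries left out the difference ran from 2.88 to 11.4 points in Eif4a2, 4.96 to 8.01 in Eif4g1 and 6.48 to 13.5 in Eef2. The members were chosen with their levels known, so these shares are no independent support. When each position counted once the difference in Eif4a2 was 1.62 points, and that in Eef2 1.09. With small RNA genes widened by 10 bases, a setting chosen after seeing the positions, the difference was 11.8 points in Eif4a2 (exact permutation, adjusted p = 0.208), 4.77 in Eif4g1 (adjusted 0.565) and −5.43 in Eef2 (adjusted 0.565), where the sign turned. It was also −5.39 in Eef2 with libraries thinned to the smallest.

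The share of a gene's ends that lay in its snoRNA genes was likewise compared in the 7 members that host one, and 0 of 7 passed. Neither Eif3a, with 2 snoRNA ends in all, nor Eif5 could pass, since their smallest possible exact p-values were 0.0625 and 0.167. In Eif4g1 it was 38.1 ± 5.54% in irradiated and 45.3 ± 2.42% in unirradiated libraries (SD, n = 12 and 4), a difference of −7.18 points (exact permutation p = 0.0332, adjusted 0.232). With single libraries left out the difference in Eif4g1 ran from −8.31 points, without shCTRL 3 Gy replicate 2, the smallest library, to −6.37. In Eif4a1 the snoRNA share was 80.9 ± 6.89% and 72.8 ± 9.34% (n = 12 and 4; difference 8.05 points, exact permutation p = 0.0957, adjusted 0.335). In Eif4a2, Eif4g2 and Eef2 the adjusted exact p-values ran from 0.339 to 0.833. With snoRNA genes widened by 10 bases the share in Eef2 was 47.2 ± 11.1% in irradiated and 64.7 ± 6.74% in unirradiated libraries (SD, n = 12 and 4), a difference of −17.5 points (exact permutation p = 0.0153, adjusted 0.107), against −6.43 at the annotated limits.

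Levels of the members moved together in some pairs across the 16 libraries. Pearson's r of log2 CPM over the libraries, given as a description, was above 0 in 25 of 28 pairs, with a median of 0.297. The highest were Eif4g1 with Eef2 (0.866), Eif4a2 with Eif4g1 (0.845), Eif4a1 with Eif4a2 (0.782) and Eif4a2 with Eef2 (0.756). Of the 28 pairs 21 join 2 genes that host snoRNA genes, with a median of 0.416 and, in Eif4g2 with Eif5, the lowest value of all, −0.165. The 7 pairs with Eef1a1, which hosts none, had a median of 0.125. The points share library, depth and line, and the share above 0 among pairs of other genes is not given here, so nothing is read from the count. Among 1332 genes with at least 50 ends per library on average, the one most like Eif4a2 was Zfas1 (0.959) and the one most like Eef2 was Rpl4 (0.881). Tspan11 was most like Eif3a (0.883), Gm28872 most like Eif4a1 (0.902), Sema5a most like Eif5 (0.856), Wdfy3 most like Eef1a1 (0.829) and Cep250 most like Eif4g2 (0.755). Each is the highest r among 1332 genes over 16 libraries, so a high value follows from the choice, and nothing is read from these pairs.

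The rest of the translation machinery showed no call either. Of 38 other initiation factor genes 26 were tested, and 0 passed the test of irradiation in either direction, with a median log2 change of −0.19. Eif4g3, a further eIF4G gene, held 227 ± 45.4 CPM in irradiated and 257 ± 49.3 in unirradiated libraries, Eif3h, a subunit of eIF3, 66.4 ± 13.3 and 62.6 ± 20.0, and Eif4b, a cofactor of eIF4A, 36.2 ± 10.7 and 58.0 ± 20.95 (SD, n = 12 and 4). Of 12 other elongation, termination and recycling genes 9 were tested and 0 passed, with a median of −0.13. The most filled were Eefsec, the selenocysteine elongation factor, at 65.0 ± 16.2 CPM in irradiated and 64.4 ± 8.36 in unirradiated libraries, Eef1g, a subunit of the exchange factor of eEF1A, at 48.0 ± 21.05 and 63.2 ± 8.47, and Gspt1, the release factor eRF3, at 32.0 ± 14.7 and 42.0 ± 13.5. Of 15 regulators 14 were tested and 0 passed, with a median of −0.02. Among them Eif2ak4, an eIF2 kinase that senses amino acid shortage, held 64.3 ± 17.6 CPM in irradiated and 67.0 ± 15.2 in unirradiated libraries, Eef2k, the kinase of eEF2, 45.4 ± 13.6 and 46.5 ± 16.1, and Eif2ak3, the eIF2 kinase of the endoplasmic reticulum, 39.2 ± 10.7 and 44.8 ± 12.7. In the comparison of responses between lines 0 genes of the 3 lists passed. In exons the 8 members, which were chosen with their levels in view, had a median density of 5.40 CPM per kb, and the other initiation factors 1.15.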

How the data were processed

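BLISS libraries of AB22 cells, 8 per line and 16 in all, were analysed. The authors' deposited files give raw counts of break ends, one record per cluster with each molecule's position, after duplicates were removed by molecular identifier. Per the submitters' processing notes, the tools were BWA 0.7.5-r404, UMI-tools, Trimmomatic 0.32, bedtools and SAMtools and the build mm10, without settings. The files keep no strand and were not normalised. Intervals over counts cover counting error only; depth per library is given with the results.

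Each molecule was placed at its recorded position (1-based) and counted for every GENCODE M21 gene body that holds it. Exons are the union over protein-coding transcripts, and small RNA genes were set apart from exons and introns. Levels are CPM of a library's ends on the main chromosomes. edgeR 4.0.16 (R 4.3.3; glmQLFit and glmQLFTest, 8 group means, TMM factors, filterByExpr, Benjamini-Hochberg) tested all 12584 genes that passed the filter, with 1 shared estimate of the spread, and DESeq2 1.42.0 was an alternative. Shares were compared by exact two-sided permutation within lines, in libraries with at least 10 ends. The edgeR and permutation steps were tested on simulated data. Named genes were all members and their small RNA genes, the 3 genes with the most ends in each other list and any past the test, and for each member its most correlated gene (log2 CPM with a prior count of 2). Members, gene lists and tests were chosen with earlier results of these data known. The look at lower-coordinate and higher-coordinate edges, the densities and exon shares with small RNA genes widened by 10 bases, and the values for chromosome 19 were chosen after seeing the data. Other steps used Python 3.11.15 with scipy 1.17.1, pandas 2.3.3, numpy 2.4.6 and matplotlib 3.10.9. RNA-seq and ATAC-seq named in the series' design were not analysed here. The gene whose levels were most like those of Eif4g1 is not reported here.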

Additional observations from a re-analysis of the deposited data

How the results depend on the processing

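The count of genes called with irradiation was 3. It was 0 with DESeq2, 0 with exonic ends alone, 0 with libraries thinned to the smallest, 1 with at most 3 ends per position and 6 with no filter on low counts. With single libraries left out it ran from 1 to 10, highest without shHMGB1 3 Gy replicate 1. It was also past 1.5 times the count without shCTRL 5 Gy replicate 2 (6), and it was 1 without either shHMGB1 0 Gy replicate and without shCTRL 10 Gy replicate 2. The count between the lines was 26. It was 70 when each position counted once, 43 with at most 3 ends per position, 1 with exonic ends alone, 1 with thinned libraries and 0 at 0 Gy alone. With single libraries left out it ran from 5 (without shHMGB1 0 Gy replicate 2) to 112 (without shHMGB1 3 Gy replicate 1). It moved by more than 1.5 times without any 1 of the 8 shHMGB1 libraries, without replicate 2 of shCTRL at any dose and without shCTRL 5 Gy replicate 1. Exonic ends alone and thinning leave fewer counts to test, and exonic ends alone also change the totals to which libraries are scaled. The cause of these changes in the counts was not tested in any setting. Eif3a was chosen with the contrast between the lines known, and the alternatives share libraries, so its calls there are a description and no test. It passed in 21 of 28 alternatives, with log2 differences from −0.77 to −0.41. Its call ended when each position counted once, with exonic ends alone, with thinned libraries, at 0 Gy alone, with the number within each line as a block, and without shHMGB1 0 Gy replicate 2 or 10 Gy replicate 1. No member passed with irradiation, or in the response, in any alternative. Members whose exon share passed numbered 0 to 3 with single libraries left out, and whose snoRNA share passed 0 to 1. With small RNA genes widened by 10 bases 0 passed for either share, and the exon share of Eif5 gave no value, as no unirradiated library held 10 such ends. No direction was reversed among called values.

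Across groups, deviations of libraries with the same replicate number correlated at 0.0272 to 0.0683 within a line (12 of 12 pairs above 0). Between lines they correlated at −0.0958 to 0.0320. The fits behind the results above carried no term for the number, and they gave counts of 3 for irradiation and 26 between the lines. With the replicate number as a block the counts were 4 and 32, and with the number within each line as a block 19 and 6. Both counts thus depended on how the number was treated within a line. The comparison of responses stayed at 0 with either, and 0 members passed for either share with labels exchanged within line and number.

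A depth of 131430 ends leaves 3 ends in Eif5 and 1 in Eef1a1 in the smallest library, so their values there carry little weight.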

Other observations

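Positions filled in more than 1 molecule differed widely between the members. In Eif4a1, 58.1% of the filled positions held more than 1 end over the 16 libraries, in Eif3a 44.4%, in Eif4a2 42.7% and in Eif4g2 39.1%, against 31.6% in Eif4g1, 27.8% in Eef2, 25.2% in Eef1a1 and 17.0% in Eif5. These shares were not matched for the number of ends. Eif5 and Eef1a1, the lowest, had the fewest, 200 and 229, while Eif4g1 had the most, 4417. A single base held 21.1% of all ends in Eif4g1, 16.9% in Eef2 and 13.2% in Eif4g2. In Eef2 that base lies 1 base before Snord37, and it held 147 ends from 16 of 16 libraries. In Eif4a1 a pile of 97 ends lay 1 base below the lower-coordinate edge of Gm24029, outside the annotated snoRNA gene, and was counted as intron. Exon 17 of Eif4g1, 147 bases long, held 203 ends at 56 positions (121 CPM per kb, against 138 in exon 19 of Eif3a), and exon 5 of Eef2, 179 bases long, held 116 ends at 60 positions.

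Between 2 libraries of a group, log2 CPM differed least in Eif3a, with a pooled SD of 0.20, and most in Eef1a1 (0.64) and Eef2 (0.56).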
